A study of Mus musculus with 3 samples.

Results

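The genes described here encode the machinery that starts and extends messenger RNA: the subunits of RNA polymerase II (Polr2a to Polr2m), the general transcription factors of the Gtf2 family, the TAF proteins, the Mediator subunits (Med genes), and the elongation factors Tcea1 to Tcea3, Ell to Ell3, Cdk9, Ccnt1, Ccnt2 and the Supt genes ending in h. They were chosen by gene name in the annotation of the arrays, with earlier results of these data known. The naming rule itself used no measured values. The genes came to 91 of the 30118 named genes on the array, covered by 134 of 39429 probes. Each was measured in mouse embryoid bodies, aggregates in which embryonic stem cells differentiate, grown in suspension without LIF for 10 days. The tested cells are labelled Dido3deltaCT+HADidoNT and the reference cells are wild-type controls. Dido3 is the longest protein made from the mouse gene Dido1, and it binds RNA polymerase II. Each of 3 biological replicates was 1 two-colour array that carried mutant and wild-type RNA together. Mutant RNA was in the Cy3 channel on arrays 1 and 3 and in the Cy5 channel on array 2. The labels do not say what drives the added construct or whether a line is 1 clone. Array 2 stood apart: across the measured members its log2 ratios had a correlation of -0.190 with array 1 and -0.321 with array 3, so the calls are also given without it.

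RNA polymerase II is assembled at a promoter with the general factors TFIIA to TFIIH, and TFIID, built from TBP and TAF proteins, recognises the promoter. Mediator is the large complex that carries signals from enhancer-bound activators to the polymerase, and its head and middle modules contact the enzyme while the kinase module docks on and off. After initiation the polymerase pauses near the promoter until P-TEFb, the kinase Cdk9 with cyclin T1 or T2, phosphorylates it and its partners, and factors such as the ELL proteins, SPT5 and TFIIS then help it move along the gene. These are housekeeping complexes in nearly every cell, embryoid bodies included.

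None of the members passed the test between genotypes. Of the 91 members, 87 had a probe that was measured on every array and, on each, well above background for 1 genotype or both, and 86 of these met that mark in both. At an adjusted p under 0.05 in limma, 0 of 87 were higher in the mutant and 0 were lower, where 1.27% of all 19666 genes tested were higher and 0.386% were lower. At an unadjusted p under 0.05, 1 member was higher against 12.1% of all genes, and 6 members were lower against 7.78%. At least 2-fold higher on all 3 arrays there were 0 members against 3.11% of all genes, and at least 2-fold lower there were also 0, against 1.08%. The smallest adjusted p of any member was 0.0823. The 4 members not tested, Gtf2f2, Gtf2h4, Med30 and Polr2k, each lost 1 spot that the scanner software marked as an outlier, and their 2 remaining arrays averaged -0.21, -0.18, -0.09 and 0.03 in log2 mutant over wild type.

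The members' mean log2 ratios, mutant over wild type, ran between -1.27 and 0.83 with a median of -0.03, beside a median of -0.01 over all genes. Of the 87, 39 were above 0 and 48 below, and 70 (80.5%) lay within 0.5 of 0, as did 68.9% of all genes. The standard deviation of the mean ratios was 0.385 across members and 0.698 across all genes. The median member's 95% interval reached 0.586 to either side of its mean. For 50 members the whole interval lay inside a 2-fold change in either direction, and for the other 37 a change of 2-fold or more was not outside it, so for these the arrays do not show that the genotypes were alike.

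**Figure D1:**
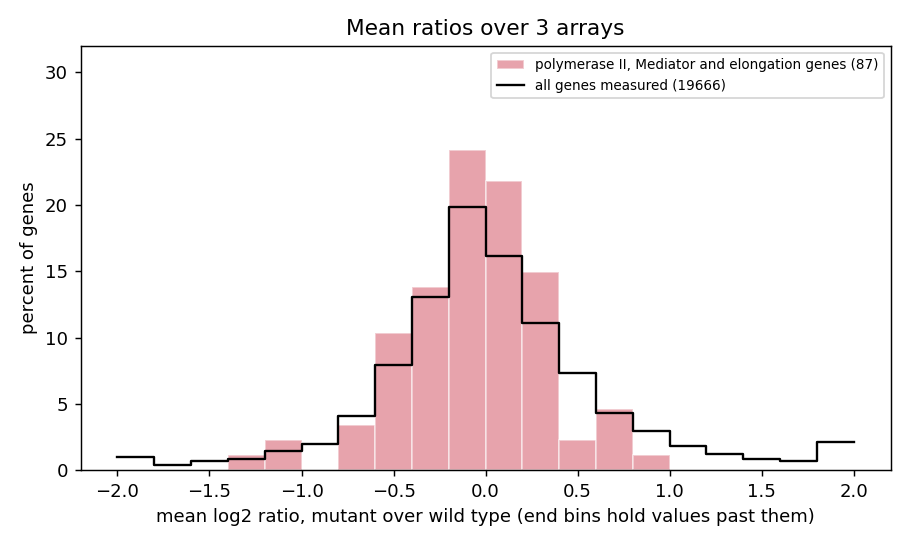
Distribution of mean log2 ratios over 3 arrays, mutant over wild type, in bins of 0.2, as a percent of genes; bars are the 87 measured members and the black line is all 19666 genes tested. The members lie between -1.27 and 0.83, while all genes reach past 2 on both sides.

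The sequences that matter for what follows are those of the array's own oligonucleotides. In the members, the difference between arrays 1 and 3 and array 2 went with probe composition. Each probe is 60 bases long, and bases 1 to 30 are given, 5′ to 3′, with G and C in capitals. Coordinates are those of the array annotation in mouse build mm9 and cover the whole probe. For Tcea2, for Taf1c and for the second Taf10 probe the annotated span is longer or shorter than the probe. No annotation of that build was used here, so the probes are not assigned to coding exons or untranslated regions. The first set belongs to the 7 members with an unadjusted p under 0.05, a choice made after their values were seen.
Tcea2 (chr2:181419201-181420518, plus strand): tCatCatCaaaGGatGCCtCaaGGaCtaCG
Ell2 (chr13:75908979-75909038, plus strand): aaGGtGtttGCtaGttGtGtaCatCatGtG
Taf15 (chr11:83320160-83320219, plus strand): CCCttaaaGCtaaGtGCGttGtaaaatatt
Taf10, probe 1 (chr7:112891421-112891480, minus strand): aaCCCaGatGtatttGtCtttCCCtCtGtC
Taf10, probe 2 (chr7:112891799-112891945, minus strand): GCataattCGGCtCatCtCaCtaGCtGCCC
Ccnt1, probe 1 (chr15:98373717-98373776, minus strand): tttGtCCaCtCttatGGtGaatatatGaat
Ccnt1, probe 2 (chr15:98373219-98373278, minus strand): GttGtGGatGCttttGGtGttaaaCatatC
Taf1c (chr8:122121874-122121893, minus strand): tGGGGaaCCaGtCCaCttCGtGtatttGat
Tcea1 (chr1:4887461-4887520, plus strand): aCttGttttGCtaGtaataaGCaGtGGttt

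The second set holds probes whose ratio on array 2 ran past 0.5 in the opposite direction to arrays 1 and 3. The first 3 were high on arrays 1 and 3 and low on array 2, and the last 2 were the reverse. The first 3 have 35.0% G and C, against 51.7% for Supt5h and 55.0% for Taf6l.
Ccnt2 (chr1:129700618-129700677, plus strand): tGGaGCtGCttGtaaGaataaCaatataCa
Med17 (chr9:15066434-15066493, minus strand): ataaGtGaCGaGtaCtttGGaatGaaaaat
Taf13 (chr3:108384916-108384975, plus strand): CaGtaCttGGGGaaataCtaGCtCtttaat
Supt5h (chr7:29100020-29100079, minus strand): GaaCCCtGaGtCtGGaGCaaGCCaGGGCaa
Taf6l (chr19:8849493-8849552, minus strand): taCCGtGaGCtataCtCCttCtttGGtGaC

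The third set shows probes for 1 gene name that gave different ratios. Gtf2a2 is the only member whose kept probes lay over 1 apart in mean log2 ratio, and Polr2c is the member with the widest gap in G and C content between kept probes.
Gtf2a2, probe 1 (chr9:69870486-69870545, plus strand): GaCaaatCaaaaGtGGttGCCttCataaGa
Gtf2a2, probe 2 (chr9:69870594-69870653, plus strand): taCCaGaGaaattGaaGaGGGGCttGaaaa
Gtf2a2, probe 3 (chr9:69867221-69867280, plus strand): GCGataatGtttGGaCttttGtattGaatG
Polr2c, probe 1 (chr8:97387688-97387747, plus strand): tGGttttCaGGCaGCatGGGGGGaaaCaCa
Polr2c, probe 2 (chr8:97387744-97387803, plus strand): tattGatCaaCaGtaGttGtCtttttaaaa
Polr2c, probe 3 (chr8:97394487-97394546, plus strand): aaCttCaaCaataGCGGGGatGCCtCtGCC

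Elongation factors held the members furthest from 0. Tcea2, the tissue-restricted form of TFIIS, which restarts backtracked polymerase by stimulating cleavage of its transcript, had log2 channel levels of 6.92, 7.25 and 7.13 in the mutant on arrays 1, 2 and 3, against 8.34, 8.00 and 8.77 in wild type. The mutant levels were all below the wild-type levels. Its mean log2 ratio was -1.27 ± 0.47 (SD, n = 3), or 2.41-fold lower, with an adjusted p of 0.0823 in limma. Tcea2 lies on chromosome 2 near Dido1: its probe starts at 181419201 and the nearest Dido1 probe at 180419747. An effect of this position beside the Dido1 gene and one of another kind cannot be told apart here. Ell2, an elongation factor of the super elongation complex, had levels of 9.26, 9.57 and 10.01 in the mutant, against 10.69, 10.87 and 10.71 in wild type, again with no overlap. Its mean ratio was -1.14 ± 0.39 (SD, n = 3), 2.20-fold lower, with an adjusted p of 0.0864. Tcea1, the broadly expressed TFIIS, had levels of 12.88, 12.69 and 12.65 in the mutant, against 13.81, 13.00 and 13.26 in wild type. The 3 mutant levels lay below the 3 wild-type levels, and the mean ratio was -0.62 ± 0.31 (SD, n = 3) with an adjusted p of 0.215.

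The third TFIIS gene, Tcea3, stood apart from both in direction, with log2 ratios of -0.10, 0.53 and 1.64 on the 3 arrays. Its arrays disagreed in sign, and its mean of 0.69 ± 0.88 (SD, n = 3) had an adjusted p of 0.395. The ELL genes were also split. Ell, the founding member of that family, gave 0.36, 0.37 and 0.29, all above 0 and close to each other. Ell3, which binds enhancers in embryonic stem cells, gave -0.23, -2.07 and 0.54, so array 2 alone was far below 0.

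Of the kinase that releases paused polymerase, the catalytic subunit and its cyclins gave different ratios. Cdk9, the catalytic subunit, had log2 channel levels of 12.66, 12.86 and 12.84 in the mutant, against 12.82, 12.73 and 12.74 in wild type. These overlap, with a mean ratio of 0.02 ± 0.16 (SD, n = 3) and a 95% interval of -0.47 to 0.52. Ccnt1, the main cyclin partner of Cdk9, had levels of 11.16, 10.82 and 10.30 in the mutant, against 10.60, 10.01 and 9.80 in wild type. The mutant was higher within each array, but the groups overlap, since the wild-type level of array 1 lies above the mutant level of array 3. Its mean ratio was 0.62 ± 0.17 (SD, n = 3), with an adjusted p of 0.175, and Ccnt1 was the 1 member above 0 with an unadjusted p under 0.05. The dimmer Ccnt1 probe gave 0.51, -1.18 and 0.29, opposite in sign on array 2. Ccnt2, the other cyclin partner, gave 1.18, -1.89 and 1.20, high on arrays 1 and 3 and low on array 2.

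The 3 Supt members that travel with elongating polymerase were below 0 on arrays 1 and 3. Supt5h, the DSIF subunit SPT5 that both holds and helps the polymerase, gave -0.61, 0.71 and -0.79, with array 2 on the other side. Supt6h, a histone chaperone of elongation, gave -0.33, -0.01 and -0.32. Supt16h, the large FACT subunit, gave -0.42, -0.08 and -0.62. Among the 12 elongation factors, 2 were higher on all 3 arrays and 5 lower on all 3, with a median of -0.23, and 0 passed the test. Over all genes, 22.5% were higher on all 3 arrays and 19.1% were lower.

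**Figure D2:**
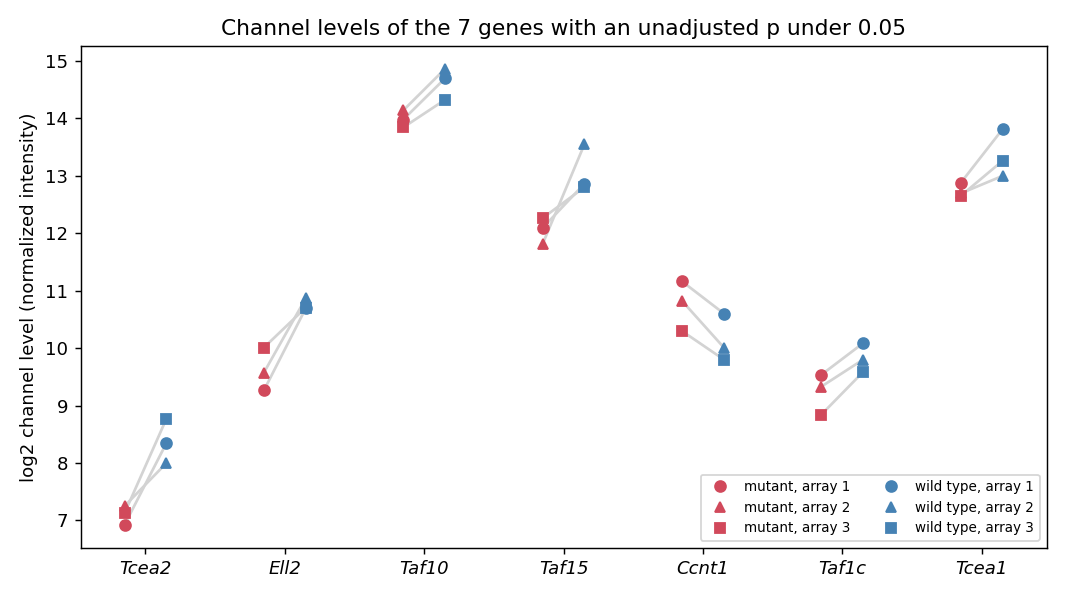
Normalized log2 channel level of the 7 members with an unadjusted p under 0.05, mutant (red) left of wild type (blue) for each gene, with marker shape for the array and a grey line joining the channels of an array. Ccnt1 is the gene whose mutant levels are above the wild-type levels of the same array, and in the other 6 the mutant is lower on every array.

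Polymerase II subunits had mean ratios near 0, which does not show for each that the genotypes were alike. All 12 measured subunit genes had mean log2 ratios within 0.5 of 0, as did 68.9% of all genes. Their median was -0.09, and the median SD between arrays was 0.179, against 0.362 over all members. The 95% intervals of Polr2a (-1.20 to 0.27), Polr2h (-1.09 to 0.24) and Polr2d (-0.51 to 1.19) reached past a 2-fold change. Those of the other measured subunit genes lay inside it. Polr2a, the largest subunit, which carries the repeat tail that Dido3 and the elongation kinases recognise, had log2 channel levels of 9.65, 9.80 and 9.06 in the mutant, against 10.36, 9.60 and 9.94 in wild type. These overlap, and array 2 differs in direction: the ratios were -0.71, 0.20 and -0.88, with a mean of -0.46 ± 0.58 (SD, n = 3) and an adjusted p of 0.440. Polr2b, the second-largest subunit, gave 0.01, -0.34 and -0.18. Polr2g, which forms the stalk of the enzyme, had levels of 14.65, 14.36 and 14.62 in the mutant, against 14.32, 13.98 and 14.38 in wild type, overlapping by one pair of values. Its mean ratio of 0.32 ± 0.07 (SD, n = 3) had an adjusted p of 0.407. Polr2d, its partner in the stalk, gave -0.03, 1.17 and -0.14, so that only array 2 was high.

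Subunits that polymerase II shares with polymerases I and III ran in both directions. Polr2h gave -0.42, -0.91 and 0.05, and its second kept probe 0.03, -0.69 and 0.23, both lowest on array 2. The annotated spans of these Polr2h probes overlap almost wholly, so the second is not a separate check. Polr2e gave 0.07, 0.15 and 0.42, and its second kept probe was also above 0 on every array. Polr2l gave 0.16, 0.23 and 0.22, but its second kept probe gave -0.60, 0.35 and -0.36, so its probes disagree on arrays 1 and 3. Polr2f gave -0.29, -0.02 and -0.07. Polr2i, a small subunit involved in transcript cleavage and proofreading, gave -0.06, -0.10 and -0.02, and its other kept probes were also below 0 on every array, with means down to -0.42. In all, 3 subunit genes were higher on all 3 arrays and 3 lower on all 3, where the shares of all genes were 22.5% and 19.1%.

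The general factors gave a different picture between arrays. Of 10 measured, 7 were high on arrays 1 and 3 and low on array 2, 2 were the reverse, and 1 was lower on all 3. Over all genes these patterns had shares of 19.1%, 19.3% and 19.1%, in that order. Gtf2h1, the p62 subunit of TFIIH, gave 0.95, -0.07 and 1.03, with a mean of 0.64 ± 0.61 (SD, n = 3) and an adjusted p of 0.321. Gtf2h2, the p44 subunit of TFIIH, had log2 channel levels of 11.88, 11.89 and 11.94 in the mutant, against 12.72, 12.03 and 12.18 in wild type. The mutant levels were all lower, with a mean ratio of -0.41 ± 0.38 (SD, n = 3) and an adjusted p of 0.407. Gtf2b, which is TFIIB and bridges the promoter to the polymerase, gave -0.59, 0.10 and -0.43. The 3 kept probes for Gtf2a2, the small subunit of TFIIA, averaged 0.23, -1.02 and 0.34 over the arrays. The second was negative on every array (-0.95, -1.37 and -0.76), so the level of Gtf2a2 is uncertain here.

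Taf10, a TAF shared by TFIID and the histone acetylase complex SAGA, was the TFIID subunit furthest from 0. Its log2 channel levels were 13.98, 14.14 and 13.84 in the mutant, against 14.70, 14.86 and 14.32 in wild type, with no overlap. The mean ratio was -0.64 ± 0.14 (SD, n = 3), with an adjusted p of 0.162. The second Taf10 probe gave -0.97, -0.57 and -0.62, so both probes were below 0 on every array. Taf11, which contacts TFIIA, gave -0.56, -0.22 and -0.62, also below 0 throughout, with an adjusted p of 0.287. Taf2, a promoter-contacting subunit, gave -0.06, -0.22 and -0.07.

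Of the 16 TFIID TAFs, 9 were high on arrays 1 and 3 and low on array 2, against 19.1% of all genes. Taf1, the largest TAF and the scaffold of the complex, gave 0.60, -1.10 and 0.35. Its other kept probes gave -0.07, -0.22 and -0.27 and 0.57, -0.26 and 0.60, so the split was not seen with each of them. Taf7, which binds Taf1, gave 1.29, -1.82 and 1.29, the widest split of any TAF, and Taf13 gave 1.13, -1.16 and 0.74. The array medians of the class were 0.14, -0.53 and 0.19, and its median of mean ratios was -0.04, a value in which these opposite arrays cancel.

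Outside TFIID, the class medians were -0.40 for SAGA and other TAFs and -0.32 for the TAFs of polymerase I. Taf15, an RNA-binding protein that associates with TFIID, had log2 channel levels of 12.09, 11.81 and 12.26 in the mutant, against 12.86, 13.55 and 12.80 in wild type. The groups did not overlap, and the gap was widest on array 2. The mean ratio was -1.01 ± 0.64 (SD, n = 3), 2.02-fold lower, with an adjusted p of 0.165. Of the SAGA members, Taf5l gave -0.24, -0.36 and -0.12, Supt3h gave -0.72, -0.04 and -0.63, and Taf6l gave -0.66, 0.69 and -1.06. Taf5l and Supt3h were below 0 on every array, and Taf6l on arrays 1 and 3.

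The TAFs of polymerase I, which serve ribosomal RNA genes as part of the SL1 complex, were matched by the same naming rule. Taf1c had log2 channel levels of 9.54, 9.33 and 8.84 in the mutant, against 10.09, 9.80 and 9.59 in wild type, without overlap. Its mean ratio was -0.59 ± 0.14 (SD, n = 3), with an adjusted p of 0.187. Taf1b gave -0.81, -0.21 and -0.13 and was also below 0 on every array. Taf1a gave 0.57, -1.40 and 0.80, and Taf1d gave 0.01, -1.56 and 0.79, both with array 2 far below the others.

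**Figure D3:**
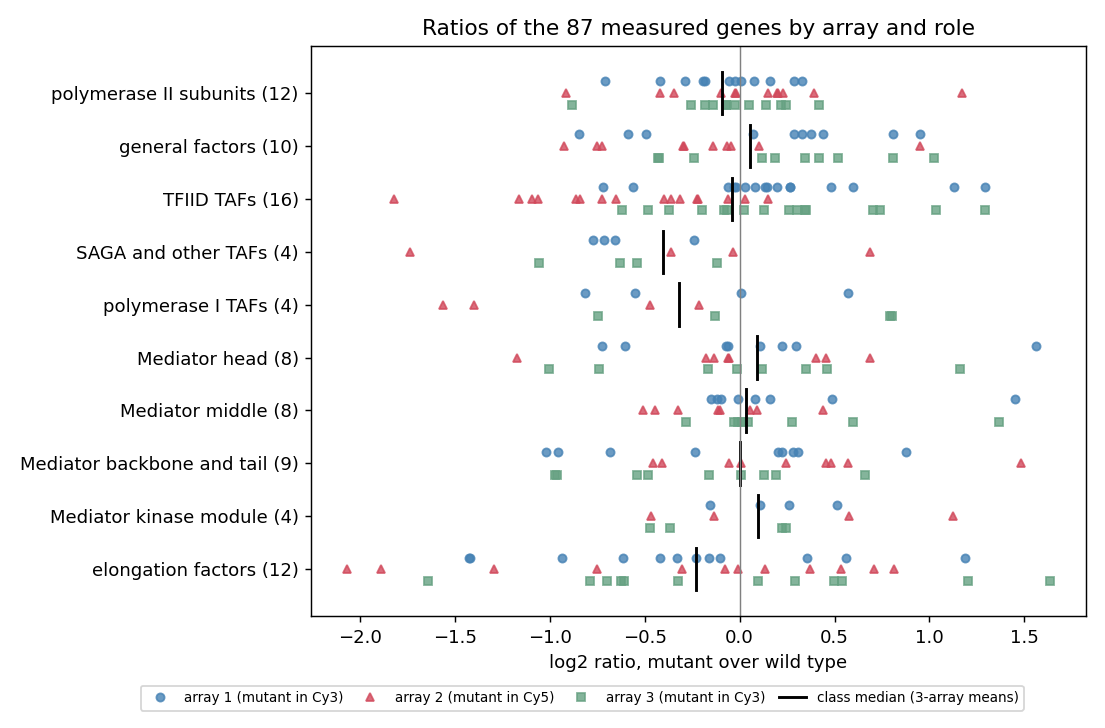
Log2 ratio, mutant over wild type, of each of the 87 measured members on arrays 1 (circles), 2 (triangles) and 3 (squares), in rows by role with the number of genes in brackets and the class median as a black bar. In the TFIID row array 2 has a median of -0.53 and arrays 1 and 3 have 0.14 and 0.19.

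Mediator subunits lay on both sides of 0: over 29 measured subunit genes the median was 0.05, with 5 higher on all 3 arrays and 5 lower on all 3. Over all genes, 22.5% were higher on all 3 arrays and 19.1% were lower. In the head module, which binds the polymerase, Med18 gave 0.30, 0.45 and 0.35, with a mean of 0.37 ± 0.08 (SD, n = 3) and an adjusted p of 0.355. Med20, its partner, gave -0.60, -0.06 and -1.01, so these neighbours in the complex lay on opposite sides of 0. Med22 gave -0.73, 0.40 and -0.74. Med17, the core of the head, gave 1.56, -1.17 and 1.16, with opposite signs in the 2 dye orientations.

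In the middle module most subunits stayed near 0. Med1, the subunit bound by nuclear receptors, had log2 channel levels of 12.80, 12.15 and 12.25 in the mutant, against 12.72, 11.70 and 12.53 in wild type, an overlapping set. Its mean ratio was 0.08 ± 0.36 (SD, n = 3), with a 95% interval of -0.50 to 0.67, and its other kept probes averaged 0.43, 0.47 and 0.05. Med31 gave -0.12, -0.11 and -0.01, and Med7 gave 0.16, -0.45 and 0.60. Med10 had the highest mean ratio of any member, at 0.83 ± 1.00 (SD, n = 3), from 1.45, -0.33 and 1.37, and an adjusted p of 0.359. Its second probe gave -0.16, 0.79 and 0.22, so the first probe's high values were not repeated.

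In the backbone and tail, Med14, the scaffold that joins the modules, gave -0.96, -0.06 and -0.96, below 0 on every array with an adjusted p of 0.269. Of its other kept probes, one gave -0.31, -0.80 and -0.42 and the other 0.06, -0.65 and 0.23, above 0 on arrays 1 and 3. Med16, a tail subunit, gave 0.20, 1.48 and 0.01, so its mean of 0.56 ± 0.80 (SD, n = 3) came mostly from array 2. Its second kept probe gave -0.06, -0.01 and -0.26, below 0 on every array, so the level of Med16 is uncertain here. The first probe had a mean log2 level of 15.79 and the second 10.52. Whether the brighter probe reads Med16 alone was not tested. Med29 gave 0.31, 0.57 and 0.19, above 0 on every array.

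The kinase module, which restrains Mediator's contact with the polymerase, held 3 of the 10 members whose levels did not overlap between genotypes. Of these, 2 were higher and 1 lower, where 13.0% of all genes were higher and 8.59% lower without overlap. The class was dim, with a median log2 level of 7.64 against 12.10 over all members. Med13l had log2 channel levels of 8.10, 8.63 and 8.18 in the mutant, against 7.58, 7.51 and 7.93 in wild type, all higher in the mutant. The mean ratio was 0.63 ± 0.45 (SD, n = 3) with an adjusted p of 0.258. Its paralog Med13 had levels of 7.04, 6.91 and 6.88 in the mutant, against 7.19, 7.38 and 7.25 in wild type, all lower in the mutant, with a mean ratio of -0.33 ± 0.16 (SD, n = 3) and an adjusted p of 0.415. Med12l gave 0.26, 0.58 and 0.22, and its paralog Med12 gave 0.11, -0.14 and -0.47. The second kept Med12 probe gave 0.32, 0.52 and 0.22, so the probes of Med12 disagree in sign on arrays 2 and 3.

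Counted over all members, 2 had mutant levels entirely above the wild-type levels (Med12l and Med13l), against 13.0% of all genes. Another 8 had mutant levels entirely below (Ell2, Gtf2h2, Med13, Taf10, Taf15, Taf1c, Tcea1 and Tcea2), 9.2% of members against 8.59% of all genes. Ratios were above 0 on all 3 arrays for 10 members, or 11.5%, against 22.5% of all genes. They were below 0 on all 3 arrays for 22 members, or 25.3%, against 19.1%. The shares below 0 were thus near those of all genes, and the shares above 0 were smaller than those of all genes. Whether the members differ from other genes in this was not tested.

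The commonest pattern among the members set array 2 against arrays 1 and 3. In 38 of 87 members the sign on array 2 opposed that on both other arrays, while 32 had 1 sign on all 3 and 17 had other patterns. High on arrays 1 and 3 with low on array 2 was seen in 26 members (29.9%), against 19.1% of all genes, and the reverse in 12 members (13.8%), against 19.3%. Past 0.5 on both sides there were 6 members of the first kind, namely Ccnt2, Gtf2a2, Med17, Taf13, Taf1a and Taf7, against 4.06% of all genes. There were 2 of the second kind, Supt5h and Taf6l, against 2.15% of all genes. A gene of the first kind was brighter in the Cy3 channel on every array, whichever genotype that channel held.

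Across the 87 members the log2 ratios of arrays 1 and 3 had a Pearson correlation of 0.830, beside 0.794 over all 19666 genes. Over all genes array 2 had a correlation of 0.377 with array 1 and 0.194 with array 3, where the members had values below 0. These describe genes on shared arrays, which are not independent replicates. Arrays 1 and 3 share a dye orientation and array 2 is alone in its own, so an effect of the dyes and one of replicate 2 cannot be told apart.

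**Figure D4:**
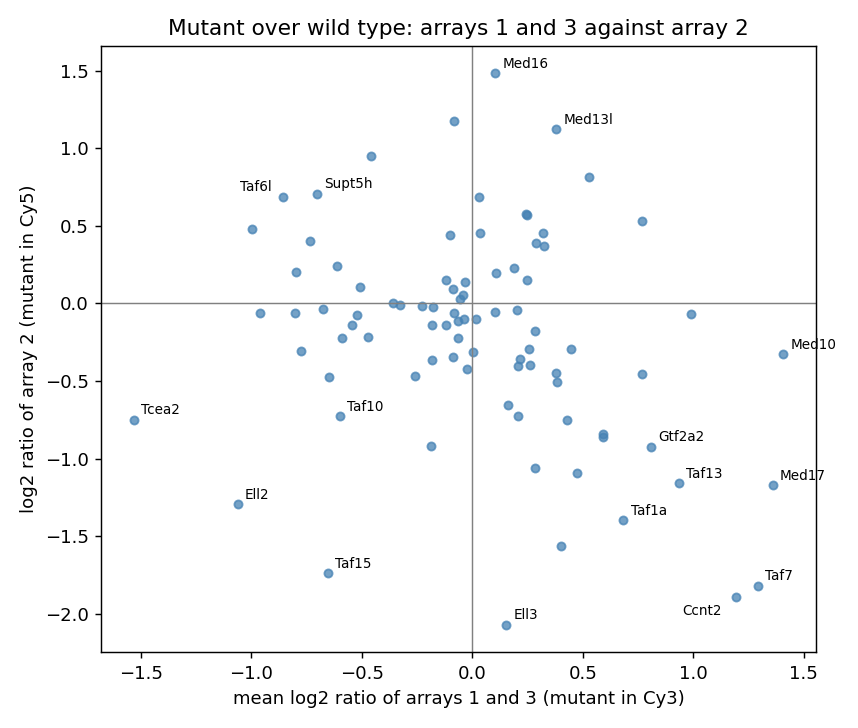
Each point is a measured member, with the mean log2 ratio of arrays 1 and 3 (mutant in Cy3) on the x axis and the log2 ratio of array 2 (mutant in Cy5) on the y axis, both mutant over wild type. The lower right holds the 26 members that were high on arrays 1 and 3 and low on array 2, plus genes whose arrays 1 and 3 differ in sign; Tcea2, Ell2 and Taf15 lie at the lower left.

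The pattern went with the base composition of the probe. The mean of arrays 1 and 3 minus array 2 had a Pearson correlation with the percent G and C of the probe of -0.600 across the 87 members (Spearman -0.544), and of -0.374 across all genes. For A the correlation across members was 0.590 and for C it was -0.535, while for G it was -0.0835 and for T -0.0141. Median G and C was 35.8% in the 26 members high on arrays 1 and 3 and low on array 2, 45.0% in the 12 of the reverse kind, and 41.7% in all 87. The mean ratio over the 3 arrays, in contrast, had a correlation of -0.168 with G and C. The part of composition in the ratios of single genes was not tested.

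Some probes for the same gene name split in this way and others did not. For Polr2c, a core assembly subunit, the probe with 26.7% G and C gave 0.45, -0.93 and 0.59, and the probe with 55.0% gave -0.94, 0.42 and -1.04. The signs are opposite on every array, and the probe used for the gene, with 45.0%, gave -0.18, -0.42 and 0.14. Among 22 genes with kept probes of unequal composition, the probe with less G and C had the larger difference between dye orientations in 14. Of the 8 with probes at least 10 percentage points apart, it had so in 6, and no test was run on these counts. Med16 and Med12 were among the genes that ran the other way. In the array annotation, the 26.7% and 45.0% Polr2c probes belong to 1 transcript and the 55.0% probe to another. For other gene names too the probes may read different transcripts. Effects of composition and of transcript cannot be told apart here.

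**Figure D5:**
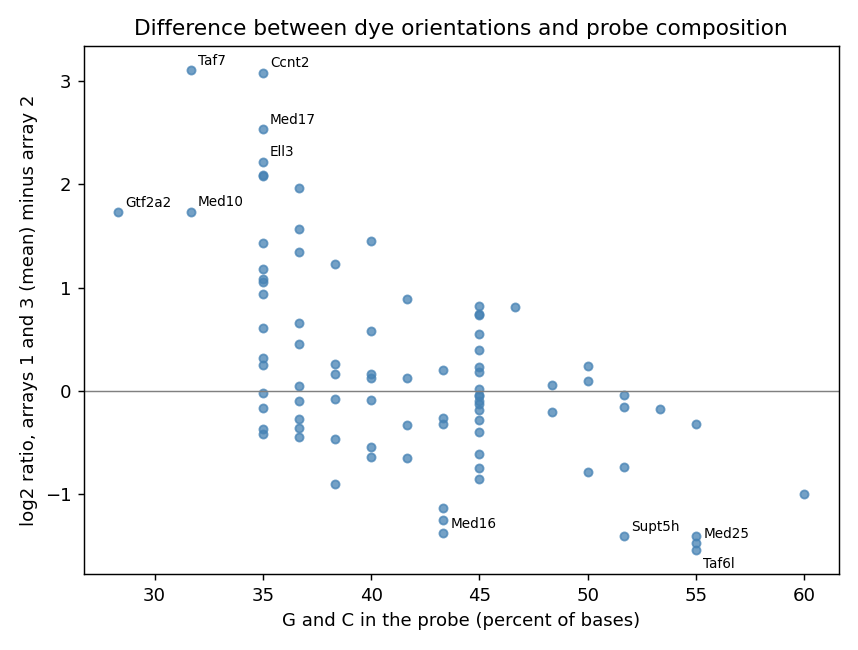
Percent G and C of each member's probe on the x axis against the log2 ratio of arrays 1 and 3 (mean) minus array 2 on the y axis, 1 point for each of the 87 members. Points fall with rising G and C, with Taf7, Ccnt2 and Med17 above 2 at the left and Supt5h, Med25 and Taf6l below -1 at the right.

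Which array was left out decided the calls. Without array 2, 9 members passed the test as higher and 11 as lower (23.0% of members, beside 25.8% of all genes), among them Tcea2, Ell2, Polr2a and Supt5h as lower and Med10, Med17, Taf7 and Ccnt2 as higher. The arrays kept there share 1 dye orientation. With a dye effect as a term in the fit, 5 members passed (5.75%, beside 12.9% of all genes). Of these, Taf15 was at -1.20, Ell2 at -1.18 and Tcea2 at -1.14, all lower, and Med13l at 0.75 and Med16 at 0.79, both higher, though the second Med16 probe went the other way. Tcea2 and Ell2 passed in both fits, while without array 1 or without array 3 none of the 19666 genes passed, members included. With 3 arrays the dye term takes up the departure of array 2, so both fits take a gene's spread from arrays 1 and 3. They are thus not separate evidence, and neither counts disagreement with array 2 as spread.

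The 5 members on the X chromosome, Med12, Med14, Taf1, Taf7l and Taf9b, had a median of -0.05, beside -0.01 for all 801 measured X genes. Taf9b, a Taf9 paralog, gave 0.14, -0.86 and 1.04, and Taf7l, a germ-cell relative of Taf7, gave 0.08, -0.36 and 0.35. Both had array 2 on the other side. Beside these values, the Y-linked genes Eif2s3y (-6.57 ± 0.46) and Ddx3y (-4.71 ± 1.06; SD, n = 3) were lower in the mutant, past the test. Over the 3 sex-linked genes measured, the summed level was only 171 to 258 in the mutant, against 7608 to 12114 in wild type. A difference between the cell lines other than the labelled genotype cannot be told apart from an effect of genotype here.

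Genes of the same pathway outside the set were read from 9 lists, and the 64 listed genes reported here include 59 that were measured. Of these 59, 7 were higher on all 3 arrays and 13 lower on all 3, with a median of -0.03. Over all genes, 22.5% were higher on all 3 arrays and 19.1% were lower. Whether the listed genes differ from other genes in this was not tested. In the list of kinases and partners of the polymerase tail, Ccnh, the cyclin of the TFIIH kinase, gave -0.96, -0.98 and -1.13. These are close to each other on all 3 arrays, but with an adjusted p of 0.0693 it did not pass the test.

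In each of the other lists the gene with the smallest p did not pass either. Cdc73, of the PAF1 elongation complex, gave 1.19, 0.39 and 1.10. Nelfb, of the pausing factor NELF, gave 1.01, 0.00 and 0.32, and Aff1, of the super elongation complex, gave -0.95, -0.94 and -0.10. Among subunits of the other polymerases, Polr1f gave 0.63, 1.04 and 1.01 and Polr3f gave -1.06, -0.71 and -0.58. Btaf1, which removes TBP from DNA, averaged -0.42, Ctdspl, a phosphatase of the polymerase tail, 0.34, and Eloa, the large elongin subunit, -0.06.

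Markers of several cell types moved with genotype, and fewer cells of a type and less RNA per cell cannot be told apart in such samples. Of 6 cardiac muscle markers 6 were higher on all 3 arrays, 1 of them past the test (Tnnt2), with a median ratio of 2.90 and a summed level of 13754 to 76387 in the mutant and 4004 to 9265 in wild type. Of 6 visceral endoderm markers 6 were higher on all 3 arrays, 1 past the test (Ttr), with a median of 2.48 and a summed level of 271500.0 to 563842 in the mutant and 35011 to 121945 in wild type. Of 6 neural markers 5 were lower on all 3 arrays and 0 passed, with array medians of -3.67, -0.46 and -4.26 and a summed level of 1911 to 2575 in the mutant and 2727 to 25951 in wild type. Of 6 pluripotency markers 0 passed, with array medians of -2.55, -2.12 and 0.94 and a summed level of 15504 to 193611 in the mutant and 81411 to 222753 in wild type. Of 3 mesoderm markers 1 was higher on all 3 arrays and 1 lower on all 3, with array medians of -0.19, 0.04 and 0.90. Kdr passed as higher, and the summed level was 3058 to 5205 in the mutant and 1057 to 1422 in wild type. No marker of these lists was listed at 0. The part of cell composition in the ratios of the members was not tested.

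The targeted gene was read by 4 Dido1 probes on chromosome 2. Those starting at 180419747 and 180405604 averaged 2.35 and 3.03, the one at 180415861 averaged -3.60, and the one at 180393086 gave -1.61, 0.05 and -0.07. Which isoform each probe reads was not assigned here. On the arrays as a whole, the share of spots well above background was 66.5 to 74.8% for mutant RNA and 64.8 to 76.0% for wild-type RNA, and 0 spots were saturated. With 3 arrays, their number limits the precision of every value given.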

How the data were processed

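Scanner files held spot intensities per dye, deposited as Agilent Feature Extraction 10.7.3.1 output, per the file headers, with the scanner's own log10 ratio. The authors also deposited a table of log2 ratios; limma is named in the submitters' processing notes. That table was set against the scanner values on 9408 bright spots per array (r of 0.990 to 0.995); no source used here gives its steps, and scale and direction were taken from that match.

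Here the local background was limited to 100 units, because 25 spots on array 2 exceeded it, and corrected with normexp (offset 50) in limma 3.58.1 (R 4.3.3). This limit was chosen with earlier results of these data known. Loess was run within each array, control and outlier spots were dropped, and replicate spots were averaged. Probes were kept if measured on all 3 arrays and, on each, well above background for at least 1 genotype (25496 of 39429). The brightest kept probe stood for a gene. Ratios, turned to mutant over wild type by the labelled dyes, were tested with limma's moderated test, Benjamini-Hochberg adjusted over 19666 genes. The procedure was tested on simulated data. A count of 0 calls does not show that changes are absent. Intervals use the same fit. Channel levels came from Aquantile normalization. Each array pairs 1 mutant and 1 wild-type RNA, so the pairing is part of every ratio.

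Genes named in the text are, per class, the 3 members with the smallest p, the 5 highest and 5 lowest means, defining members and X-linked members, and per pathway list the genes past the threshold or else that with the smallest p; the genes with an opposite array 2, all array-to-array examples and most printed probes were chosen after their values were seen. The members and lists were chosen with earlier results of these data known. A gene of 1 pathway list is not reported here and is left out of the counts over the lists. Of 134 member probes, 117 were matched to RefSeq names by accession and 17 by symbol. Alternatives covered background, normalization, filter, probe choice, a dye term, the prior, the deposited ratios and leaving out each array.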

Additional observations from a re-analysis of the deposited data

How the results depend on the processing

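The counts of 0 members higher and 0 lower held under 11 of 12 other processing settings. With a dye term they were 2 and 3, and the members' median was -0.10, beside -0.03 in the fit reported. Leaving out each array gave 0 to 9 members higher, 0 to 11 lower and a median between -0.13 and 0.0027. Over all genes the calls also moved: 0 with unlimited background, without the filter, from the deposited ratios, without array 1 or without array 3; 732 with offset 16; 769 from the scanner's ratio; 583 with a trended prior; 2537 with the dye term; 5082 without array 2; and 325 in the fit reported. The cause was not tested, beyond the fewer arrays in the last fits.

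Of 825 values for 55 named members, 763 kept their direction and side of the threshold, 22 passed the threshold, and 40, in 17 genes, changed sign. With the dye term these were Ccnt2 at -0.35, Taf7 at -0.26, Taf9b at -0.14, Taf13 at -0.11, Taf7l at -0.072, Gtf2a2 at -0.058, Med7 at -0.033 and Supt5h at 0.0030. Averaging a gene's probes gave Gtf2a2 -0.15, Med12 0.094 and Taf1 0.022. Unlimited background gave Taf1a 0.29 and Taf1 0.11, median centring gave Taf1a 0.038, no filter gave Taf7 -0.67 through another probe, the scanner's ratio gave Med1 -0.021, and the deposited ratios gave Cdk9 -0.027 and Taf7l -0.053. Leaving out each array gave ranges of -0.35 to 1.19 for Ccnt2, -0.031 to 0.12 for Cdk9, -0.058 to 0.81 for Gtf2a2, -0.099 to 0.26 for Med1, -0.0059 to 1.36 for Med17, -0.14 to 0.38 for Med7, -0.082 to 0.57 for Polr2d and -0.70 to 0.047 for Supt5h. They were -0.37 to 0.47 for Taf1, -0.21 to 0.93 for Taf13, -0.41 to 0.68 for Taf1a, -0.78 to 0.40 for Taf1d, -0.86 to 0.016 for Taf6l, -0.26 to 1.29 for Taf7, -0.14 to 0.22 for Taf7l and -0.36 to 0.59 for Taf9b. The fit reported is already paired, since each array holds 1 mutant and 1 wild-type RNA.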

Other observations

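Genes of the pathway lists also split between dye orientations. Aff4, the scaffold of the super elongation complex, gave log2 ratios of 2.07, -2.16 and 2.04, mutant over wild type, a wider gap than in any of the 87 members. Leo1, of the PAF1 complex, gave 0.66, -1.33 and 1.09, and Mepce, which caps the 7SK RNA that holds P-TEFb inactive, gave 0.40, -1.13 and 0.48. The mean ratios of these 3 genes were 0.65, 0.14 and -0.08, and 0 of them passed the test in limma. They were picked for this pattern after their values were seen.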
